A study of Mus musculus with 6 samples.

Results

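The genes described here are the clustered histone genes of the mouse, taken as every probe that is not a control and whose gene name begins with Hist1h, Hist2h, Hist3h or Hist4h. They comprise 68 of the 56605 probes that are not controls, and 56 of the 37074 gene names of these probes, on 4 chromosomes. By class these are 8 probes for H1, 21 for H2A, 18 for H2B, 10 for H3 and 11 for H4. The scanner software marked 62 of the 68 probes, for 53 genes, as well above background on 3 or more arrays of 6, and these entered the tests with 40490 other probes. They are called measured below.

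Primary cultures of embryonic day 16 C57/B6 mouse cerebral cortex were grown in Neurobasal medium with B27 plus. There were 3 control cultures and 3 cultures irradiated at 3.1 THz, in sessions of 3 hours once daily between days 5 and 9 in vitro. RNA was taken from all cultures on day 12, and 0.2 µg of each was labelled with Cy3 for an array of its own. The labels number the cultures 1 to 3 in each group without saying whether they came from separate dissections, so the p-values reflect only how these samples spread, and that spread may be technical. The labels describe no sorting of the cells, and no label describes the controls' handling during the irradiation sessions.

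Histones are the proteins around which DNA is wound. H2A, H2B, H3 and H4 form the core of the nucleosome, and H1 binds the linker between cores. Most clustered histone genes are transcribed in S phase, when new DNA has to be packed. Their short, intronless messages usually end in a stem-loop bound by SLBP instead of a poly(A) tail, and several of these genes also give longer, polyadenylated messages in cells that have stopped dividing. A probe can therefore lie before the stem-loop, reach it, or lie beyond it, where only a longer message has sequence.

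The stem-loop was read directly from the probes. It was sought as a 6-base arm starting with GG, a 4-base loop starting with T, and the reverse complement of the arm. Such a hairpin was found whole in 6 of 68 histone probes and in 16 of all 56605 probes (0.0283%). The 6 are shown because they define the place of a probe used below. Each line gives 30 bases or fewer of the probe, 5′ to 3′, with the hairpin in capitals.

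Hist2h2bb: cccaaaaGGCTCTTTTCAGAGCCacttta
Hist1h2bf: acccaaaGGCTCTTTTCAGAGCCaccta
Hist1h3i: aacaaaaGGCTCTTTTCAGAGCCccctc
Hist1h3a: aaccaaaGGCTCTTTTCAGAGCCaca
Hist1h3g: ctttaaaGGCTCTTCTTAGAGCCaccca
Hist1h4m: aactaaaGGCCCTTTTCAGGGCCatccaa

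Hist2h2bb, Hist1h2bf, Hist1h3i and Hist1h3a carried the same hairpin, Hist1h3g differed in its loop and Hist1h4m in its arm. On mouse build mm9 the Hist2h2bb probe lies at chr3:96074056-96074115 (plus strand), and those of Hist1h2bf at chr13:23665629-23665688 (minus), Hist1h3i at chr13:21874784-21874843 (minus), Hist1h3a at chr13:23853756-23853815 (minus), Hist1h3g at chr13:23627719-23627778 (plus) and Hist1h4m at chr13:21903960-21904019 (plus). A further 4 probes ended inside a stem-loop, which makes 10 that reach it, all measured. Another 21 probes began within or after the stem-loop, or more than 500 bases into the transcript position given in the files (700 for H1, which has a longer coding region). Of these, 17 were measured. The remaining 37 were counted as upstream, and 35 of them were measured. A probe that ended or began inside a stem-loop was recognised only by the 3 hairpin sequences found whole. The Hist1h1t probe, counted as upstream, ends in bases like the start of a hairpin with a different arm, and may reach it. These places were defined after the values had been seen, and a start of more than 500 bases stands in for a stem-loop that was not itself located.

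Many probes cannot tell one histone gene from another. The RefSeq transcripts that the files list for a probe belonged to more than 1 gene for 18 of the 52 probes where they could be matched to a gene, and 8 H2A probes formed a group linked by shared runs of at least 30 bases. The 4 below, whose last codon is a stop codon, share the 34 bases in capitals.

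Hist1h2ah: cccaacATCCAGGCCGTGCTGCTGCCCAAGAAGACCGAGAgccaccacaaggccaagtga
Hist1h2af: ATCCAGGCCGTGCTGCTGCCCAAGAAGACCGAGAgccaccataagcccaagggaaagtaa
Hist1h2ak: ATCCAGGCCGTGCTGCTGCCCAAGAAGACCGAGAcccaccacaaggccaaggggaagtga
Hist2h2ac: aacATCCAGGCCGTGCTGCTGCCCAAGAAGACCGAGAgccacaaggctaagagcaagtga

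On mm9, the first lies at chr13:22127035-22127094 on the minus strand, the second at chr13:23626113-23626172 on the plus strand, the third at chr13:21845304-21845363 on the minus strand and the last at chr3:96024378-96024437 on the minus strand. Their signals, and those of the other members of that group, are not independent measurements of separate genes. The probes named Hist1h2an (chr13:21902669-21902728), Hist1h2ao (chr13:21902695-21902754) and Hist1h2ai (chr13:21902706-21902779) overlap at 1 place in mm9.

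Levels are log2 signal relative to the 75th percentile of the same array, so 0 is that percentile and 1 unit is a factor of 2. Over the arrays this percentile ran from 476 to 1291 signal units, and the share of spots well above background from 64.9% to 74.7%, both lowest on control 1. The percentile was 476, 687 and 1048 on controls 1 to 3, and 1225, 1291 and 921 on irradiated arrays 1 to 3. Control 1 stood at -148 on the first principal component of all tested probes (55.4% of the variation), and the other arrays between 11.6 and 62.0. All 13 neuron markers, 10 astrocyte markers, 10 oligodendrocyte markers and 13 microglia markers were measured, so transcripts of genes used as markers of neurons and of glia were present together. Fewer cells of a type and less RNA per cell cannot be told apart in these bulk samples.

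Transcripts of every histone class were present. All 6 H1 genes were measured: Hist1h1a, Hist1h1b, Hist1h1c, Hist1h1d, Hist1h1e and Hist1h1t. H2A had 16 of 18 genes measured, H2B 13 of 14, and H3 and H4 all 9 each. The genes with no measured probe were Hist1h2ad, Hist1h2al and the pseudogene Hist3h2bb-ps. The current symbol of Hist1h2al, H2af-ps2, is also that of a pseudogene, and its probe lies at chr13:51295494-51295553, away from the other Hist1 probes. The Hist1h2ad probe began at position 0 of its transcript and the Hist1h2al probe at position 2774, so absence of these messages was not shown. The measured H2A genes were Hist1h2aa, Hist1h2ab, Hist1h2ac, Hist1h2ae, Hist1h2af, Hist1h2ag, Hist1h2ah, Hist1h2ai, Hist1h2ak, Hist1h2an, Hist1h2ao, Hist2h2aa1, Hist2h2aa2, Hist2h2ab, Hist2h2ac and Hist3h2a. Those of H2B were Hist1h2ba, Hist1h2bb, Hist1h2bc, Hist1h2be, Hist1h2bf, Hist1h2bg, Hist1h2bm, Hist1h2bn, Hist1h2bp, Hist1h2bq, Hist2h2bb, Hist2h2be and Hist3h2ba. H3 was represented by Hist1h3a, Hist1h3c, Hist1h3d, Hist1h3f, Hist1h3g, Hist1h3i, Hist2h3b, Hist2h3c1 and Hist2h3c2, and H4 by Hist1h4c, Hist1h4d, Hist1h4h, Hist1h4i, Hist1h4j, Hist1h4k, Hist1h4m, Hist2h4 and Hist4h4.

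No histone probe differed between irradiated and control cultures after correction, yet most lay lower in the irradiated ones. The median difference, irradiated minus control, was -0.38 over the 62 measured probes against -0.02 over all 40552 probes tested. Of the 62, 52 were below 0, against 52.6% of all probes. By class the median was -0.36 for H1, -0.67 for H2A, -0.15 for H2B, -0.32 for H3 and -0.49 for H4. Without control 1 these were -0.04, -0.30, -0.20, -0.21 and -0.43, and without control 3 they were -0.84, -0.96, -0.27, -0.47 and -0.60. The H2B median turned to 0.049 without control 2, with 7 of 16 probes below 0 (51.3% of all probes). At an adjusted p under 0.05 (limma, Benjamini-Hochberg over all probes) 0 of 62 histone probes were called, and 0.0% of all probes were. The smallest adjusted p of a histone probe was 0.54. At an unadjusted p under 0.05, 5 of 62 were lower, against 4.09% of all probes, and 0 of 62 were higher, against 4.65%. The 5 were Hist1h4m, Hist1h4c, Hist1h4k, Hist2h4 and Hist1h2ai, so 4 of them were H4 probes. The number of lower probes ran from 0 without irradiated 2, where 1.06% of all probes were lower at that threshold, to 22 of 62 without control 3, where 9.80% were. It was 13 of 62 with normexp background correction, where 13% of all probes were, and 1 of 62 without control 1 (2.27%), control 2 (1.80%) or irradiated 1 (1.44%), and 8 of 62 without irradiated 3 (5.24%). With the array number as a block in the model it was 1 of 62 (3.45%).

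**Figure D1:**
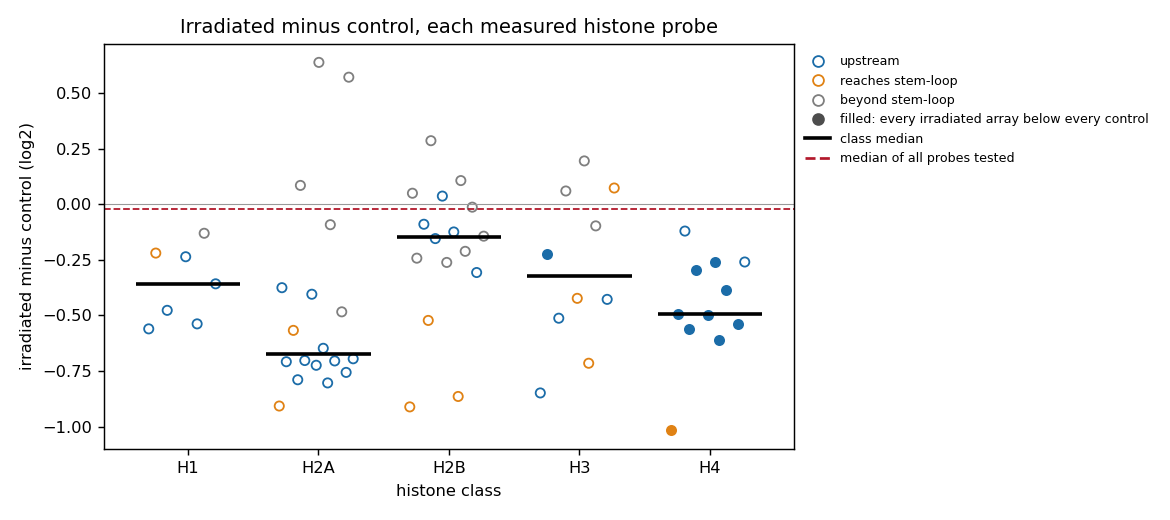
Irradiated minus control difference (log2, y axis) of each of the 62 measured histone probes, by class (x axis). Colours give the place of the probe relative to the stem-loop, filled points are probes with every irradiated array below every control, black bars are class medians and the dashed line is the median of all probes tested (-0.02). All 11 H4 points lie below 0, and the points above 0 are mostly probes beyond the stem-loop.

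H4 was the class in which the groups overlapped least. All 11 of its differences were below 0, against 52.6% of all probes. Of the 11 H4 probes, 9 had all 3 irradiated arrays below all 3 controls. Over all classes 10 of 62 histone probes had that order, against 7.44% of all probes, and the tenth was the H3 probe Hist1h3d. Without control 3 there were 32 of 62, against 21.7% of all probes, and without irradiated 3 there were 20, against 20.9%. The opposite order, every irradiated array above every control, was found in 0 of 62, against 6.63%. The count of H4 probes was 8 of 11 with quantile normalisation (8.27% of all probes) and with the deposited table (8.23%), and 9 of 11 with normexp (9.03%). It was between 9 and 10 of 11 when any 1 array was left out, where 9.06% to 21.7% of all probes had that order. Leaving out both arrays numbered 1 gave 9 of 11 (15.4% of all probes), with a median of -0.34. Since several H4 probes list the same targets, these are not 11 separate genes.

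Hist1h4d, which codes for the H4 core histone like every gene of its class, stood at 6.08, 6.0 and 5.72 on control arrays 1 to 3 and at 5.23, 5.40 and 5.67 on irradiated arrays 1 to 3. The difference of the second Hist1h4d probe was -0.26. Hist1h4k (probe A_55_P2091145) stood at 5.06, 5.00 and 4.64 in controls and at 4.13, 4.31 and 4.56 in irradiated cultures. In both genes the lowest control was control 3 and the highest irradiated culture was irradiated 3, so these 2 arrays came closest to overlapping. Hist2h4, the H4 gene of the smaller cluster on chromosome 3, gave 4.73, 4.61 and 4.31 in controls and 3.80, 4.04 and 4.20 in irradiated cultures. Its means were 4.55 ± 0.22 (SD, n = 3) and 4.01 ± 0.20 (SD, n = 3), and the difference was -0.54 (95% interval -1.06 to -0.02), with an adjusted p of 0.54 (limma). Before scaling, its signals overlapped, at 12625, 16799 and 20780 in controls and 17027, 21229 and 16913 in irradiated cultures. For Hist2h4 and for the bright Hist1h4d probe, each irradiated signal was above those of controls 1 and 2. The lower level of these probes in irradiated cultures was thus seen after scaling and not before it.

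Hist1h4c gave -0.42, -0.46 and -0.81 in controls and -1.46, -1.20 and -0.86 in irradiated cultures, again without overlap. The H4 gene with the lowest difference was Hist1h4m, whose probe holds the hairpin shown above. Hist1h4m stood at -3.04, -3.77 and -4.13 in controls and -4.62, -4.97 and -4.40 in irradiated cultures, a difference of -1.02 (SE 0.32). Its 95% interval ran from -1.77 to -0.26, with an unadjusted p of 0.015 and an adjusted p of 0.54 (limma). In Hist1h4i the groups overlapped, with -2.01, -2.32 and -2.59 in controls against -2.52, -2.62 and -2.57. The plot of H4 probes by array shows the groups apart for 9 of the 11 probes, bright and dim ones among them.

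**Figure D2:**
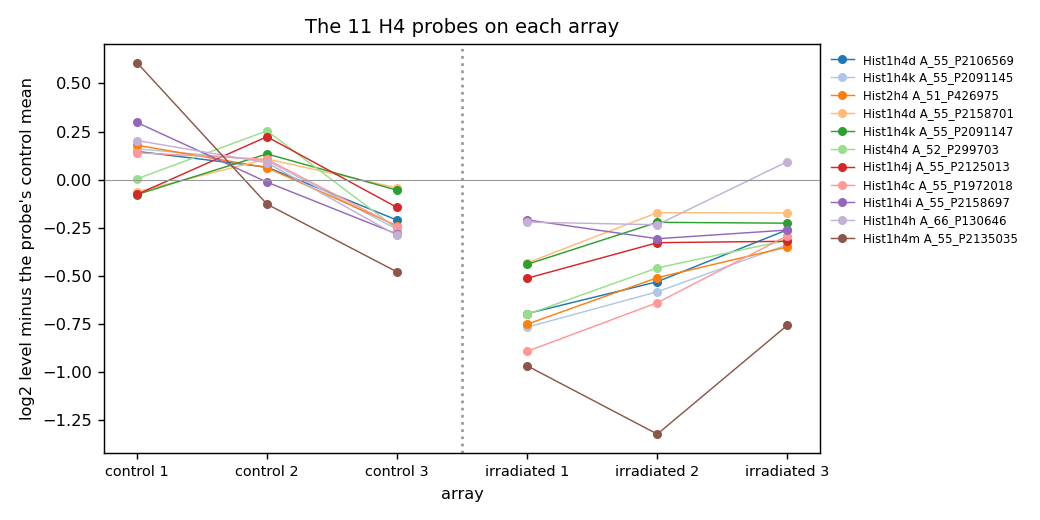
Level of each of the 11 H4 probes (log2, y axis) relative to the mean of its 3 controls, on each array (x axis). Lines join the values of 1 probe within a group. Irradiated 3 lies closest to the controls for most probes, and Hist1h4m has the widest separation.

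The Hist1h4k and Hist2h4 probes are printed because both lie in the coding sequence and gave 2 of the 5 unadjusted calls. The listed RefSeq transcripts belonged to 4 genes for the first, whose position is chr13:21842063-21842122 on the minus strand of mm9, and 1 for the second, at chr3:96066953-96067012 on the minus strand.

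Hist1h4k: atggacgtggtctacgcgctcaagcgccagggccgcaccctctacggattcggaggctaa
Hist2h4: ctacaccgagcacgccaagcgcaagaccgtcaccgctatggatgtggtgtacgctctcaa

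H2A had the lowest class median with all 6 arrays, but not with quantile normalisation, where H1 had -0.45 and H2A -0.37, nor without control 1, where H4 had -0.43 and H2A -0.30. Its groups overlapped in all 18 measured probes. Hist1h2ah gave 6.82, 5.82 and 5.27 in controls and 5.31, 4.87 and 5.46 in irradiated cultures. Hist1h2aa, known from the testis, gave 6.42, 5.47 and 5.03 against 4.98, 4.62 and 5.21, and Hist1h2af gave 6.40, 5.42 and 4.94 against 4.95, 4.55 and 5.18. In these 3, which belong to the group of 8 probes with shared sequence, control 1 was the highest array and control 3 lay among the irradiated arrays. Hist1h2ag had the same order, with 6.25, 4.84 and 4.28 in controls and 4.65, 3.74 and 4.58 in irradiated cultures. The raw signal of Hist1h2ah varied less than its scaled level, at 53840, 38833 and 40367 in controls and 48588, 37681 and 40589 in irradiated cultures. The percentile by which it is divided was lowest on control 1, and no spot was saturated. Without control 3, 13 of the 18 H2A probes had every irradiated array below every control (21.7% of all probes did), as did 5 of 18 without irradiated 3 (20.9%). Without control 1 the class median was -0.30.

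Bright probes of other genes also lay lower in irradiated cultures. Among the 2097 other probes with a mean level above 4, the median difference was -0.29. Of them 1928 (91.9%) were below 0, against 52.6% of all probes. Every irradiated array was below every control in 334 of these 2097, a larger share than the 7.44% of all probes. The 13 histone probes above that level had a median of -0.70, and 3 of them had that order. Of the 13, 8 belong to the H2A group with shared sequence. Among the 11781 other probes with a mean level below -4 the median was -0.01. The part of signal level in the histone differences was not tested.

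Hist1h2ai had 2 measured probes, which lie at separate places on mm9. The one reaching the stem-loop is at chr13:21902706-21902779 and the other at chr13:21808994-21809053. Whether both read the same gene was not tested. The probe reaching the stem-loop gave -1.64, -1.95 and -2.63 in controls and -3.29, -3.31 and -2.35 in irradiated cultures, and its difference of -0.91 had an unadjusted p of 0.0405 and an adjusted p of 0.54 (limma). The probe beyond the stem-loop was well above background on 4 arrays and gave -7.0, -5.45 and -6.33 against -7.59, -5.73 and -5.74. Hist2h2aa1, measured beyond the stem-loop and on 5 arrays, gave -6.88, -4.42 and -5.29 against -5.30, -4.64 and -4.93. Neither dim probe separated the groups, and the signal of control 1 was among the lowest in both.

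With all 6 arrays, H2B had the median closest to that of all probes. Hist1h2bc, one of the H2B genes known to make polyadenylated messages in differentiated cells, gave 4.77, 5.34 and 4.70 in controls and 4.81, 4.90 and 4.46 in irradiated cultures. The Hist1h2bb probe A_55_P2500536 gave 3.12, 3.53 and 2.94 against 3.09, 3.31 and 2.92. Both sets overlapped throughout, and the arrays numbered 2 were highest within each group. For Hist2h2bb, whose probe holds the hairpin, the values were 0.33, -0.67 and -1.30 against -1.43, -1.96 and -0.98. Hist1h2bf, with the same hairpin, gave -0.90, -1.96 and -2.32 against -2.78, -3.08 and -1.91. In these hairpin probes control 1 was highest, as in H2A, and control 3 lay within the irradiated range. Hist1h2bq gave -4.80, -5.07 and -5.70 against -4.61, -5.46 and -5.55, with no separation.

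H3 was mixed. Hist1h3d gave 3.59, 3.61 and 3.53 in controls and 3.09, 3.45 and 3.52 in irradiated cultures, so the lowest control and the highest irradiated array nearly met. Hist1h3c gave 1.56, 0.59 and -0.13 against -0.22, -0.54 and 0.23, where control 3 lay within the irradiated range. The 2 probes of Hist2h3c2, both beyond the stem-loop, gave 0.79, 1.35 and 1.03 against 0.85, 1.09 and 0.95, and -0.05, 0.71 and 0.57 against 0.43, 0.67 and 0.71. Neither separated the groups. Among the dim hairpin probes, Hist1h3a gave -5.32, -5.45 and -6.32 against -6.28, -7.25 and -5.70, Hist1h3g gave -5.34, -5.32 and -6.62 against -5.17, -5.48 and -6.41, and Hist1h3i gave -3.19, -4.32 and -4.77 against -4.58, -4.64 and -4.32. All 3 overlapped.

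The difference between the groups varied with the place of the probe. Upstream of the stem-loop 34 of 35 probes were below 0, against 52.6% of all probes, with a median of -0.49. Among probes reaching it 9 of 10 were below 0, with a median of -0.64. Beyond it 9 of 17 were below 0, with a median of -0.01, close to the -0.02 of all probes. Without control 1 the medians were -0.28, -0.44 and -0.15, and 15 of the 17 probes beyond the stem-loop were below 0 (55.6% of all probes). The median beyond it turned to 0.085 without control 2 and 0.18 without irradiated 1. The place shares probes with the class, since 10 of the 11 H4 probes were upstream and none lay beyond. Place was also tied to signal level. Of the histone probes with a mean level above 4, all were upstream except Hist1h2bc, which lies beyond. Probes of other genes above that level had a median of -0.29, with 91.9% below 0. The difference between places was not tested.

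The numbers 1, 2 and 3 were compared with irradiation in the model, which leaves 2 arrays per number. No histone probe was called by the F-test over the numbers at an adjusted p under 0.05 (0 of 62, against 0.00247% of all probes), and the smallest adjusted p was 0.164, for Hist1h1c. At an unadjusted p under 0.05 there were 8 of 62, against 12.8% of all probes. The contrasts also gave 0 of 62 each, against 0.195% of all probes for number 1 minus 2, 0.459% for 1 minus 3 and 0.0% for 2 minus 3. Both arrays numbered 1 were above the other 4 in 7 of 62 histone probes, against 12.4% of all probes, and 5 of these were H1 probes. Both were below the other 4 in 10 of 62, against 16.9%, and all 10 were among the 17 probes beyond the stem-loop. Both counts over all 62 were near the share of all probes, and the places were defined after the values had been seen, so the split by class and place is a description only. The count of 7 was 14 without control 2 (15.7% of all probes) and 35 without irradiated 1 (34.8%), and the count of 10 was 24 without control 1 (33.2%). Both arrays numbered 2 were above the other 4 in 11 of 62, against 5.51% of all probes, and 7 of these were H2B probes. That count was 21 without irradiated 2 (19.5%), and 7 with normexp (3.30%). Both arrays numbered 3 were below the other 4 in 10 of 62, against 7.39%, and 6 of these were H2B probes. That count was 19 without irradiated 2 (11.9%), and 6 with normexp (6.74%). Both arrays numbered 2 were lowest in 0 of 62, against 4.74%, and both numbered 3 were highest in 4, against 8.64%. Without control 2, irradiated 2 was the lowest array in 23 of 62, against 18.1% of all probes.

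**Figure D3:**
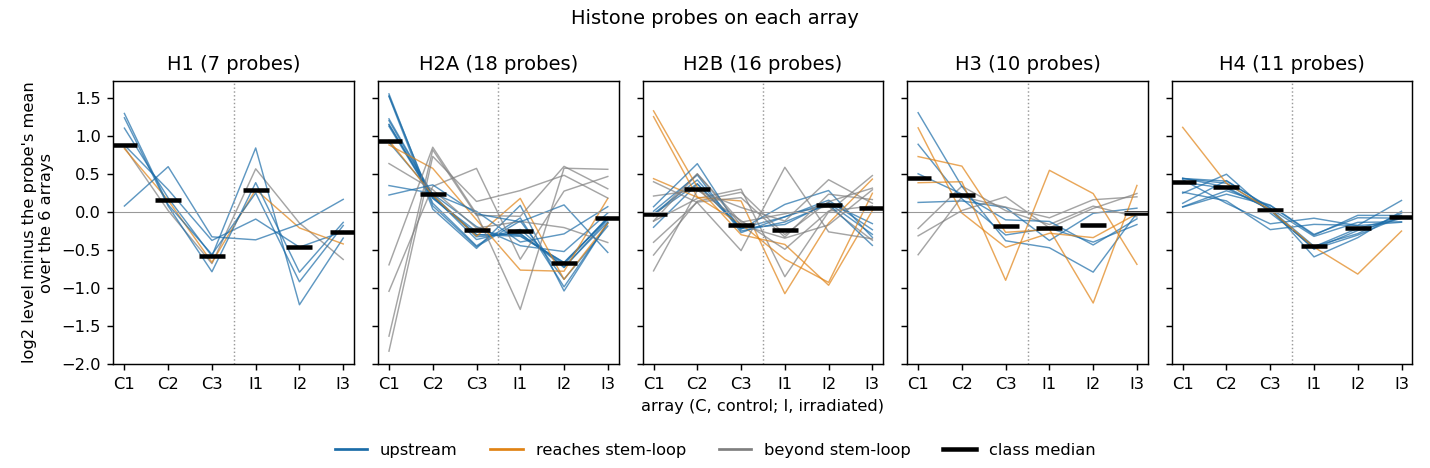
Level of each measured histone probe on each array, as its log2 level minus its mean over the 6 arrays (y axis), in 1 panel per class, with control (C) and irradiated (I) arrays on the x axis. Lines are probes coloured by place and black bars are class medians. The H1 median is highest on control 1 and irradiated 1, the H2A median on control 1, and the H4 medians are higher on the controls than on irradiated arrays.

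H1 probes were higher on both arrays numbered 1 in 5 of 7 cases, against 12.4% of all probes, with medians of 0.77 for 1 minus 2 and 1.14 for 1 minus 3. The count was also 5 with quantile normalisation (13.7% of all probes) and without control 1 (23.3%), and 4 with normexp (10.8%). The Hist1h1c probe A_51_P516133, which lies beyond the stem-loop, gave 3.34, 2.51 and 1.81 in controls and 3.06, 2.34 and 1.86 in irradiated cultures, with 1 minus 3 at 1.36 (adjusted p 0.0874, limma). Hist1h1b, an H1 gene known for expression in dividing cells, gave 0.62, -0.30 and -1.06 against 0.36, -1.70 and -0.83. Hist1h1a gave -2.07, -3.27 and -3.93 against -3.12, -4.29 and -3.55. In each of these the array numbered 1 was the highest of its group. The values of Hist1h1e, 2.30, 1.71 and 1.04 against 1.32, 0.95 and 1.16, had irradiated 1 below control 2.

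In H4 the medians were -0.06 for 1 minus 2 and -0.04 for 1 minus 3. Of its probes 0 of 11 were highest on both arrays numbered 1, against 12.4% of all probes. Without irradiated 1, control 1 alone was the highest array in 7 of 11, against 34.8% of all probes, and without control 1, irradiated 1 was the lowest in 8 of 11, against 33.2%. H2A had medians of 0.51 and 0.57, but 1 of 18 probes was highest on both. That count was 7 of 18 with quantile normalisation (13.7% of all probes) and 13 of 18 without irradiated 1 (34.8%). Without control 1 the H2A median of the arrays numbered 1 minus the others was -0.10. Relative to each probe's mean, the H2A median was -0.25 on irradiated 1, below the 0.24 on control 2. H2B medians were -0.35 and 0.13, and those of H3 were 0.22 and 0.25. For the arrays numbered 1 minus the others, the H3 median of 0.33 was -0.17 without control 1 and 0.61 without irradiated 1, and the H4 median of -0.04 was -0.37 and 0.38. The H2B median of -0.11 was 0.015 without control 2.

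Probes of the same gene did not always share their pattern. Hist3h2a was chosen as an example after its values were seen. Its probe upstream of the stem-loop gave 2.70, 2.60 and 2.36 in controls and 1.96, 2.07 and 2.42 in irradiated cultures, with means of 2.33, 2.33 and 2.39 over the numbers 1, 2 and 3. The probe beyond the stem-loop gave 2.35, 3.73 and 3.97 against 2.77, 3.67 and 3.86, with means of 2.56, 3.70 and 3.92. The second alone had both arrays numbered 1 as the lowest, and its F-test had an unadjusted p of 0.00599 and an adjusted p of 0.172 (limma). Hist2h2be, also chosen after its values were seen and known for long polyadenylated messages, has 2 probes beyond the stem-loop. They gave -0.83, -0.12 and -0.01 against -0.56, -0.13 and 0.05, and -1.22, -0.69 and -0.63 against -1.15, -0.58 and -0.65. Both had the arrays numbered 1 lowest in each group. Hist3h2ba beyond the stem-loop gave 2.73, 3.03 and 3.15 against 2.00, 2.85 and 3.33, with the same order. In Hist1h1c both probes were higher on the arrays numbered 1, including the one beyond the stem-loop.

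Over the 17 probes beyond the stem-loop the medians were -0.50 for 1 minus 2 and -0.48 for 1 minus 3. The count of 10 with both arrays numbered 1 lowest (16.9% of all probes) was 10 with quantile normalisation (16.0%) and with the deposited table (16.0%), and 7 with normexp (12.1%). Of the 14 such probes above background on all 6 arrays, 8 had that order, against 17.2% of all probes above background on all 6. Among the 35 upstream probes 0 did. Without control 1 the counts were 11 of 35 upstream and 12 of 17 beyond the stem-loop, against 33.2% of all probes.

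**Figure D4:**
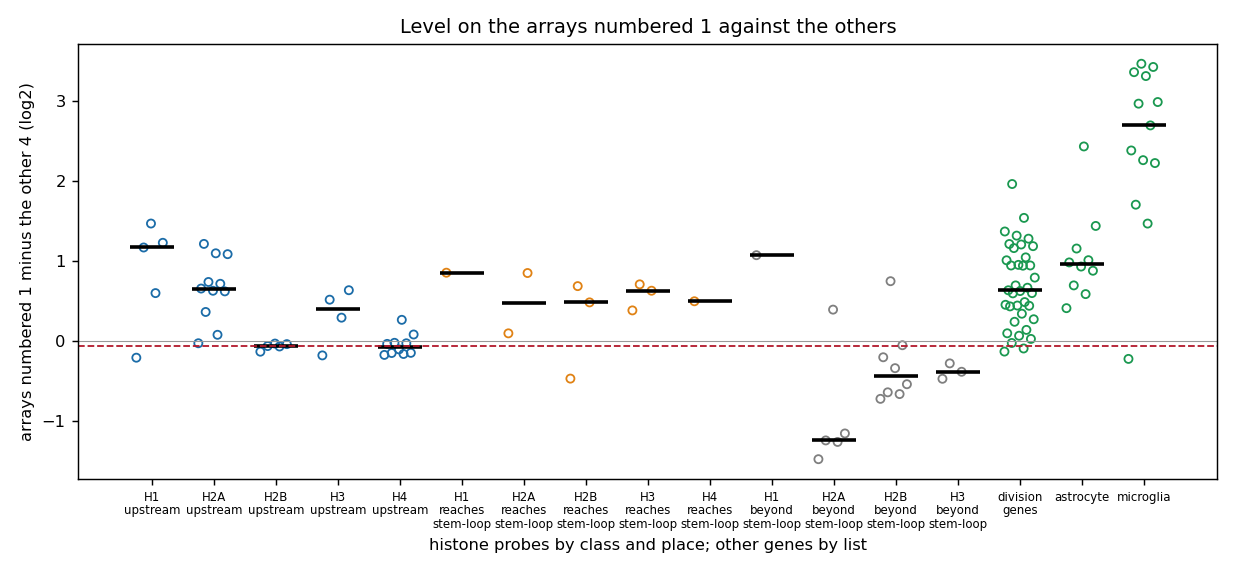
Level on the arrays numbered 1 minus the mean of the others (log2, y axis) for measured histone probes by class and place, and for genes of 3 other lists (x axis). Points are probes, black bars medians and the dashed line the median of all probes tested. H1 probes and the division genes lie mostly above 0, and most probes beyond the stem-loop lie below.

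Genes of DNA replication and cell division were compared by number because most clustered histone genes are transcribed in S phase. Of 37 measured, 28 were highest on both arrays numbered 1, against 12.4% of all probes, with medians of 0.65 for 1 minus 2 and 0.71 for 1 minus 3. By the F-test 0 passed after correction, and 17 had an unadjusted p under 0.05 (limma), against 12.8% of all probes. Tk1, which makes thymidine nucleotides for DNA synthesis, gave -0.12, -2.02 and -2.48 in controls and -0.48, -2.22 and -2.32 in irradiated cultures. Cdk1, the kinase of mitotic entry, gave -2.84, -3.64 and -4.34 against -2.06, -3.11 and -3.95. For irradiation, 0 of the 37 had an unadjusted p under 0.05 (limma), against 4.09% of all probes lower and 4.65% higher. Their median difference was -0.09. Among markers of glia, 12 of 13 microglia markers, 9 of 10 astrocyte markers and 7 of 10 oligodendrocyte markers were highest on both arrays numbered 1. The share of all probes was 12.4%. Of the markers of oligodendrocyte precursors, 0 of 7 were highest on both and 3 of 7 were lowest, where 16.9% of all probes were lowest. Of the progenitor markers, 2 of 8 were highest and 2 of 8 lowest, and 1 of 13 neuron markers was highest. The microglia medians were 2.40 for 1 minus 2 and 2.99 for 1 minus 3. Of the oligodendrocyte markers 1, Mobp, passed the F-test with an adjusted p of 0.0217 (limma), at 1.29, -8.04 and -5.62 in controls and 1.32, -7.78 and -5.89 in irradiated cultures. On both arrays numbered 2 Mobp lay below the dimmest spot well above background, at -5.84 on control 2 and -6.57 on irradiated 2. The size of its difference there is therefore set by the floor. The mean level of the microglia markers ran from -2.40 to 0.26 over the controls and from -2.16 to 0.61 over the irradiated cultures. For the division genes it ran from -1.10 to -0.31 and from -1.07 to -0.35, and for the astrocyte markers from 2.36 to 3.62 and from 2.26 to 3.45. The part of these cells and of division in the histone values was not tested.

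Genes that make and handle histone messages were read from lists of the pathway. Of the 22 genes of histone message processing and decay, 0 were called in either comparison (1 in each at an unadjusted p under 0.05, limma). At that threshold 4.09% of all probes were lower and 4.65% higher for irradiation, and 12.8% passed for number. These shares stand beside the unadjusted counts of every list in this paragraph and the next. The median irradiated minus control difference of the 22 genes was 0.04, and 8 were lowest on both arrays numbered 1, against 16.9% of all probes. Lsm11, a protein of the U7 particle that cuts histone messages, gave 2.45, 3.70 and 4.30 in controls and 2.99, 3.49 and 4.08 in irradiated cultures. Srrt, of the cap-binding complex, gave -3.27, -2.22 and -1.86 against -1.31, -0.97 and -2.04, with an unadjusted p of 0.0491 and an adjusted p of 0.54 (limma). Of the 17 genes of histone transcription and S-phase entry, 0 were called in either comparison (1 for irradiation and 2 for number at an unadjusted p under 0.05, limma), and the median difference was -0.11. Among them Ccna2, an S-phase cyclin, gave 0.42, -0.70 and -1.39 in controls and -0.20, -0.84 and -0.99 in irradiated cultures, and was highest on both arrays numbered 1. E2f4, a repressor of cell cycle genes, gave -1.83, -1.82 and -2.46 against -2.91, -2.77 and -2.49.

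Of the histone genes outside these clusters, 12 were measured. Most code for variants that are also made outside S phase, but the list includes Cenpa, the histone of centromeres, and H1foo, known from the oocyte. Their median difference was -0.20 and 0 were called in either comparison (1 in each at an unadjusted p under 0.05, limma). H1fx gave 1.62, 1.47 and 0.82 in controls and 0.45, 0.49 and 0.90 in irradiated cultures, with an unadjusted p of 0.0401 and an adjusted p of 0.54 (limma). H2afj gave 6.35, 5.71 and 5.35 against 5.05, 4.99 and 5.51, with control 1 highest as in the clustered H2A probes. H3f3b gave 4.11, 4.58 and 4.71 against 4.22, 4.59 and 4.68, and did not separate the groups. Of the 23 histone chaperones 0 were called (0 for irradiation and 2 for number at an unadjusted p under 0.05, limma), with a median difference of 0.08. Asf1b, a chaperone of H3 and H4, gave -0.55, -1.61 and -1.90 against -0.71, -1.74 and -1.80, and was highest on both arrays numbered 1.

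Promoters from 250 bases before to 50 after the gene's start were found for 49 of the 56 genes, as 50 windows of RefSeq on build GRCm38.p6. TATAAA was present in 29 of 50 (58%), against 13.6% of all 32851 promoters, on either strand. CCAAT was present in every H1, H2A, H2B and H3 window and in 2 of 8 for H4, against 37.4% of all. ATTTGCAT, the octamer of histone H2B promoters, was in 6 of 12 H2B and 7 of 17 H2A windows, against 1.74%. AAACACA, part of the H1 box, was in 5 of 6 H1 windows, against 7.18%. The windows are not all separate DNA. Those of Hist1h2aa and Hist1h2ba overlap on opposite strands, as do Hist1h2ad and Hist1h2bf, Hist1h2ae and Hist1h2bg, and Hist1h2ak and Hist1h2bn. The same holds for Hist1h2an and Hist1h2bp, and for Hist1h2ao and Hist1h2bq. A site in such an overlap counts for both genes, as the octamer of Hist1h2ae and Hist1h2bg does. The promoters of Hist1h1b and Hist1h4k are shown because H1 had the most probes with both arrays numbered 1 highest and H4 the most with every irradiated array below every control. Capitals mark these motifs, read on both strands, none of which overlap here.

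Hist1h1b: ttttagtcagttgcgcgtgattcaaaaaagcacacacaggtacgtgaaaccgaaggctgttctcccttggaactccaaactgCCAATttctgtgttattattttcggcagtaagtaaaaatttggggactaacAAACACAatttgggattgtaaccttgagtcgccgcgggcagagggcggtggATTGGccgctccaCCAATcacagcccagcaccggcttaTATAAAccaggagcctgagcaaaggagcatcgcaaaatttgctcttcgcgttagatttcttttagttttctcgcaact
Hist1h4k: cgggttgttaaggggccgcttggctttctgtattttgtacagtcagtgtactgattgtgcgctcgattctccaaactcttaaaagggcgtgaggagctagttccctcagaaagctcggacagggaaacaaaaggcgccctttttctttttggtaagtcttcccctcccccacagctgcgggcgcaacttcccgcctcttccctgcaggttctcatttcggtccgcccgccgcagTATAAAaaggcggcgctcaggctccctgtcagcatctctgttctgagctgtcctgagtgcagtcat

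The first is chr13:21780576-21780875 and the second chr13:21750504-21750803, both on the minus strand of GRCm38.p6. A match is a description of letters in the window and not a measured binding site.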

How the data were processed

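RNA of 6 cultures was measured on 1-colour Agilent arrays. The deposited scanner files hold linear intensity values of Agilent Feature Extraction 10.7.1.1, per the file headers, with background already subtracted and not scaled between arrays. A second, log2 table deposited by the authors has values that are quantile normalised between arrays (column median 5.90) and rank probes like the scanner signal. How it was made is not stated in any source used here. Probe positions are on mm9, per the file headers.

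Outlier spots were left out, log2 signals of a probe's spots were averaged, and the log2 of each array's 75th percentile over spots that are not controls was subtracted. Probes well above background on at least 3 of 6 arrays (40552) were fitted with limma 3.58.1 in R 4.3.3 (lmFit, eBayes). One fit was irradiated minus control, the other the numbers 1 to 3 with group as a covariate. Benjamini-Hochberg adjustment was over all probes, at 0.05. Both fits were tested on simulated data. The members, the gene lists and the tests were chosen with earlier results of these data known. Full values are given, within each class, for the 3 probes of highest level, the 2 of largest difference and the 2 of largest spread between numbers, and of other lists 2 genes with the smallest p in each fit were eligible. Genes of several probes are represented by the brightest, except histones. Alternatives were quantile scaling, normexp (offset 50), the deposited table, other filters, 1 probe per gene, outlier spots kept, a replicate block, no group term and leaving out arrays. Added after seeing the data were the block with quantile scaling, leaving out both arrays numbered 1, and the counts by class, place and number under each alternative. Promoters come from RefSeq. The number of arrays limits the precision.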

Additional observations from a re-analysis of the deposited data

How the results depend on the processing

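No histone probe was called under any alternative of either comparison. The median irradiated minus control difference of the histone probes stayed below 0 under each, from -0.54 without control replicate 3 to -0.25 without control replicate 1, and was -0.34 with quantile normalisation and -0.46 with normexp. Over all probes the median was -0.02 as reported, 0.000073 with quantile normalisation and -0.19 with normexp, where 72.9% of all probes were below 0. With number as a replicate block the median was -0.38 and 0 probes were called, and 1 of 62 was lower at an unadjusted p under 0.05 (limma), against 3.45% of all probes. The labels do not say whether the numbers pair cultures, and the main fit did not treat them as pairs. Deviations of same-numbered arrays correlated at 0.46, 0.33 and 0.086 for numbers 1, 2 and 3, all above 0. Only for number 1 was the same-numbered array the best match in both directions.

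Some single probes changed sign, and the cause was not tested. With quantile normalisation, with or without the replicate block, Hist1h1c (A_51_P516133) became 0.0104, Hist1h2bc 0.0637 and Hist1h2bb (A_55_P2500536) 0.0703, and the deposited table gave 0.0103, 0.0643 and 0.0702. With normexp Hist2h2aa1 became -0.36 and Hist1h3g -0.47. Without both arrays numbered 1, Hist1h2ai (A_66_P115902) became 0.16, Hist3h2ba (A_55_P2036813) 0.0013 and Hist1h3i 0.060. Leaving out 1 array at a time, the difference ran from -0.50 to 0.26 for Hist1h1c, from -1.02 to 0.013 for Hist1h1b, from -0.22 to 0.075 for Hist1h2bb, from -0.10 to 1.12 for Hist2h2aa1, from -0.46 to 0.53 for Hist1h2ai and from -0.31 to 0.18 for Hist1h2bq. It ran from -0.54 to 0.12 for Hist3h2ba, from -0.36 to 0.43 for Hist1h3g, from -0.76 to 0.026 for Hist1h3i, and from -0.23 to 0.049 and from -0.038 to 0.34 for the 2 probes of Hist2h3c2.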
